A study of Caenorhabditis elegans with 57 samples.

Results

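The genes described here are 200 Caenorhabditis elegans genes with high RNA levels in newly hatched larvae and almost none in control germlines. They were chosen by RNA level, and the values that chose them are described without a test. A gene qualified when it stayed under 1 CPM (a gene's count scaled to a common library total) in each of 5 control germline libraries, called M+P+, from the first cross of the study. Of the 35167 such genes among 45461, the 200 with the highest mean CPM in M+P+ larvae were taken, leaving out the cuticle collagens whose symbols begin with col-.

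The study followed the histone mark H3K27me3 inherited through sperm, with poly(A) RNA sequencing and with CUT&RUN, which counts DNA fragments released around a histone mark. M+P- animals had a mes-3 mutant father and M+P+ animals a father with a wild-type copy of mes-3. Germline samples were the distal parts of gonads cut at the bend, 30 to 50 per sample, from day 1 adults. Larval samples were about 100 animals of mixed sex.

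The groups were as follows. The mes-3 fathers were mes-3(bn35); him-8(e1489) males whose mothers carried bn35 over the balancer hT2-GFP, so they lacked their own MES-3 but had a mother with a wild-type copy. The him-8 fathers were him-8(e1489) males, and both kinds shared the him-8 mutation, which raises the number of males. Offspring of the first cross, M+P- and M+P+, carried 1 mutant copy of each of 3 alleles: mes-3(bn35)/+, with fem-2(b245ts)/+ and with him-8(e1489)/+. Their mother was fem-2(b245ts) in the CB4856 background. The father, in the N2 background and him-8(e1489) in both groups, was homozygous mes-3(bn35) for M+P- and carried bn35 over hT2-GFP for M+P+. In the second cross, the F1 and F2 hermaphrodites all carried a glh-1::GFP::3xflag allele and mes-3(bn199)/+ and were fem-2(b245ts). F1 fathers were homozygous for the bn199 allele (M+P-) or carried it over hT2-GFP (M+P+). The F2, labelled GM+GP-, had no father and descended from a mother of the F1 genotype, so their sperm and oocyte alleles are those of the grandparental strains. By the labels, the offspring of both crosses were heterozygous for mes-3 in every group.

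H3K27me3 is a mark of repressed chromatin. In C. elegans its writer is a Polycomb complex of which MES-3 is a subunit, beside MES-2 and MES-6. The complex keeps the germline from expressing genes of somatic tissues and keeps the X chromosome quiet there. H3K36me3 marks genes that are or were transcribed, and the 2 marks usually occupy different genes. The 2 background strains differ at many bases, so reads that cover such a base can be assigned to the chromosome that came from the sperm or to the one from the oocyte.

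RNA was measured in 33 libraries, 3 per group for fathers, larvae, F1 and F2, 2 per group for first-cross hermaphrodites and 4 per group for first-cross males, with 5706650 to 19191934 counts each. CUT&RUN gave 24 libraries, 2 per group and mark, with 1701400 to 41980395 counts each. The 4 libraries of him-8 males were the shallowest, with at most 4606666. Nothing in the labels says that replicates came from separate cultures, so p-values measure the spread between these samples, which may be technical. No 2 libraries of a group held identical values. The mes-3 gene itself had 20.4 to 41.9 CPM in mes-3 fathers and 38.7 to 46.5 CPM in him-8 fathers. The labels do not say what bn35 does to its transcript, so these levels check no label. The summed level of 12 germ cell markers was 5540 to 7966 CPM in germline libraries and 51.0 to 90.7 CPM in larvae.

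Some libraries need naming before the results. M+P+ male replicate 3 stands far from the other M+P+ males, with a summed level of the 200 genes of 2130 CPM against 26.1 to 58.7 CPM. The rule did not use it, and male values are given with and without it. In F1 M+P- replicate 3 the chromosome X genes hold 0% of the counts and those of chromosome V 0.767%, against 1.24% and 13.8% in F1 M+P- replicate 2. Its column is incomplete, so it was left out of the fits, and F1 M+P- has 2 libraries unless stated otherwise. Among the CUT&RUN libraries, the 2 H3K36me3 libraries of first-cross M+P+ hermaphrodites are unlike each other. Replicate 2 has 41980395 counts and replicate 1 has 14651631. Allele-assigned reads fall on 7909 autosomal and 689 X genes in replicate 2, and on 10633 and 1639 in replicate 1. Several counts given below move when replicate 1 is left out, and those fits rest on replicate 2 alone for M+P+.

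The 200 genes hold 196 protein-coding genes, 2 noncoding RNAs (tts-2 and C30E1.9) and 2 pseudogenes (Y39B6A.21 and F07H5.4). On chromosome X lie 71 of them (35.5%), on V 47, on IV 28, on II 24, on I 17 and on III 13. Chromosome X holds 13.6% of all protein-coding genes and 15.2% of those at 1 CPM or more in M+P+ larvae. Of the coding genes that are also under the germline limit, it holds 23.6%. The limit itself selects for X, and the share among the 200 is above that of all genes under it.

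The most abundant of the 200 in M+P+ larvae belong to several tissues. The highest is ram-2 with a mean of 2450 CPM, a gene needed for the shape of the male tail rays. It is followed by irg-7, an infection response gene, with 2340 CPM. ifb-2, an intermediate filament of the intestine, had 1714 CPM. The pharyngeal myosin heavy chains myo-2 and myo-1 had 1583 and 1330 CPM. After them come hrg-11.3 (1270 CPM), ctsa-2 (1019 CPM), the gut filament ifc-2 (994 CPM), lfi-1 (928 CPM) and the water channel aqp-2 (830 CPM). All are means of the 3 libraries used to choose them.

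The limits of the choice were gradual. By larval level, ptr-8, dgk-1 and T08B1.1 were the last genes in, with 121.2, 121.1 and 121.1 CPM. The first ones out were kin-36, T16G12.1 and mec-5, with 120.8, 120.1 and 119.5 CPM. By germline level, unc-82 was in with 0.968 CPM in its highest control library, and T28D6.5 and W03F9.4 with 0.945 CPM each. The muscle light chain mlc-1, maoc-1 and R07E3.1 were out with 1.02 CPM.

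Markers of 7 cell types show which tissues the genes belong to. The choice included 6 of 10 neuron markers (snt-1, rab-3, egl-3, egl-21, sbt-1 and ida-1), 3 of 6 pharynx markers (myo-1, myo-2 and tnt-4) and 2 of 10 intestine markers (ifb-2 and pept-1). It included 1 of 9 body muscle markers (tni-1), 1 of 8 epidermis markers (grd-10) and 1 of 7 somatic gonad markers (ceh-18). None of the 12 germ cell markers was among them. The label of larval somatic genes holds on these lists for neurons and pharynx above all. Some markers of gut and body muscle were above the germline limit, among them vit-2 with 12.02 to 16.2 CPM and unc-54 with 3.57 to 4.23 CPM in M+P+ hermaphrodites. Name patterns placed the genes in roles: 15 neuronal, 12 epidermal, 11 gut, 10 neuropeptide, 6 detoxification, 6 pharyngeal and 6 secreted, 4 each of metabolism, muscle and regulators, and 2 of matrix. The remaining 120 were not placed. The patterns read symbols alone, so single placements can be wrong: the noncoding RNA tts-2 is counted as secreted. Within these roles the highest larval means were those of mec-12 and mec-7 (715 and 583 CPM, tubulins of touch neurons), egl-3 and egl-21 (654 and 588 CPM, peptide processing), tni-1 (690 CPM, troponin I), sdz-24 (349 CPM), ttr-16 (318 CPM), him-4 (246 CPM), lin-14 (236 CPM) and acox-3 (206 CPM).

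In fathers, 2 of the 3 mes-3 libraries had more of the 200 genes at 1 CPM or more than any him-8 library, and the groups overlap. Of the 200, 127, 97 and 35 reached 1 CPM in the 3 mes-3 libraries, against 71, 23 and 12 in the 3 him-8 libraries. Their summed level was 558, 340 and 139 CPM in mes-3 fathers and 209, 84.2 and 52.7 CPM in him-8 fathers. The lowest mes-3 library is below the highest him-8 library on both measures. For comparison, larvae had 54833 to 62555 CPM summed over the same genes, with all 200 at 1 CPM or more.

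**Figure D1:**
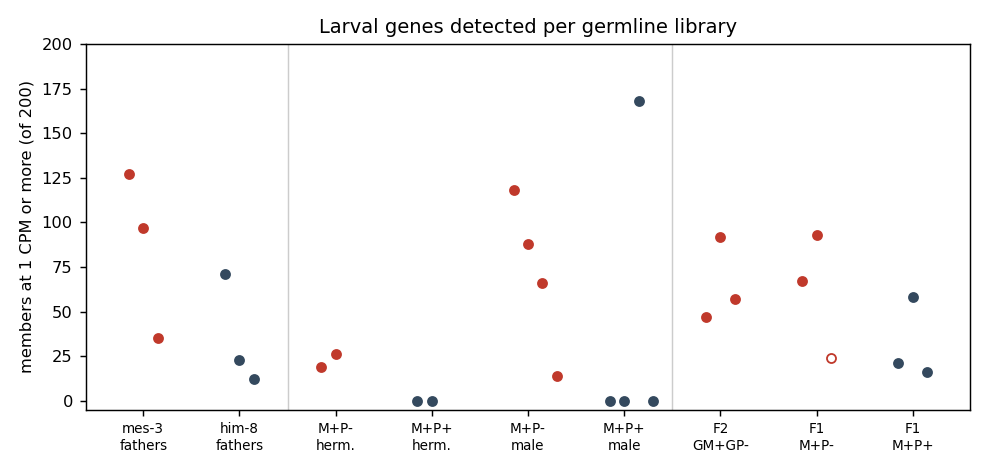
Number of the 200 genes at 1 CPM or more in each germline library (vertical axis, 0 to 200), grouped along the horizontal axis; each point is 1 library, red for mes-3 fathers, M+P- and F2, dark for him-8 fathers and M+P+. The open circle is the incomplete F1 M+P- replicate 3, and the dark point at 168 is M+P+ male replicate 3. M+P+ hermaphrodites and the other 3 M+P+ males are at 0 by the rule.

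Of the 200, 52 passed the filter on low counts in fathers. Of these, 3 were called higher in mes-3 fathers and 0 lower, where called means a Benjamini-Hochberg adjusted p under 0.05 over all genes tested by edgeR's quasi-likelihood test. Over all 8873 genes tested, 7.01% were called higher, so 3 of 52 is near that background. The count was 1 without him-8 replicate 2 and 2 without mes-3 replicate 1 or 2. The median log2 fold change of the 52 was 1.49 and that of all genes 0.03. A gene that passed the filter only because it was high in mes-3 fathers had to differ. Neither the median nor the count of calls among those that passed thus carries weight. Over all 200 genes, 197 had a count in some father library and 34 of these (17.3%) had every mes-3 library above every him-8 library, against 15.7% of all genes with counts.

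The genes called in fathers include 2 of the neuropeptide machinery. ida-1 encodes a receptor tyrosine phosphatase-like protein of dense-core vesicles, the carriers of neuropeptides. It had 6.26, 11.04 and 10.5 CPM in mes-3 fathers, against 0.282, 0.564 and 0.152 CPM in him-8 fathers. The groups do not overlap, and ida-1 was higher by 4.67 on the log2 scale (SE 0.55, adjusted p = 0.00302, edgeR). It was called in all 10 alternatives tried for this comparison, each leave-one-out fit among them. With under 1 CPM in every him-8 library, ida-1 passed the filter only through the mes-3 libraries, as did egl-3 below. The filter limit given above thus holds for the tests of both genes too.

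egl-3 encodes the proprotein convertase that cuts neuropeptide precursors. Its levels were 2.74, 2.63 and 5.26 CPM in mes-3 fathers and 0, 0.141 and 0.456 CPM in him-8 fathers. All mes-3 libraries are above all him-8 libraries, with a log2 fold change of 4.03 (SE 0.86, adjusted p = 0.0303, edgeR). The call was kept in 5 of 10 alternatives and in 1 of 6 leave-one-out fits, the highest adjusted p being 0.151. sipa-1, named for a mammalian GTPase-activating protein of Rap, had 21.9, 10.2 and 8.004 CPM in mes-3 fathers, against 1.69, 1.13 and 0.608 CPM in him-8 fathers. The groups are well apart, with a log2 fold change of 3.48 (SE 0.54, adjusted p = 0.00895, edgeR).

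itx-1 and bcl-11 missed the threshold in fathers and were called in offspring, as given below. itx-1, a neurexin-like gene named for the intestine, had 5.74, 5.43 and 8.24 CPM in mes-3 fathers and 1.83, 0.846 and 0.152 CPM in him-8 fathers, a log2 fold change of 2.73 with an adjusted p of 0.0521 in edgeR. The zinc-finger transcription factor gene bcl-11 had 6.13, 2.98 and 1.55 CPM in mes-3 fathers and 0.705, 1.41 and 0.456 CPM in him-8 fathers. Its log2 fold change was 1.96 with an adjusted p of 0.141 in edgeR.

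Other roles were detected in fathers without a call. The intestinal filament gene ifc-2 had 7.96, 3.86 and 0.836 CPM in mes-3 fathers, against 3.10, 0.564 and 0.608 CPM in him-8 fathers. These ranges overlap. tni-3, a troponin I of muscle, had 6.92, 5.43 and 2.51 CPM in mes-3 fathers and 2.82, 2.82 and 1.06 CPM in him-8 fathers, also overlapping. The pharynx genes were at the bottom of the range: none of 6 (myo-1, myo-2, tnt-4, tnc-2, marg-1 and phat-5) reached 1 CPM in any father library of either group. In the 3 him-8 libraries all 6 had 0 counts.

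**Figure D2:**
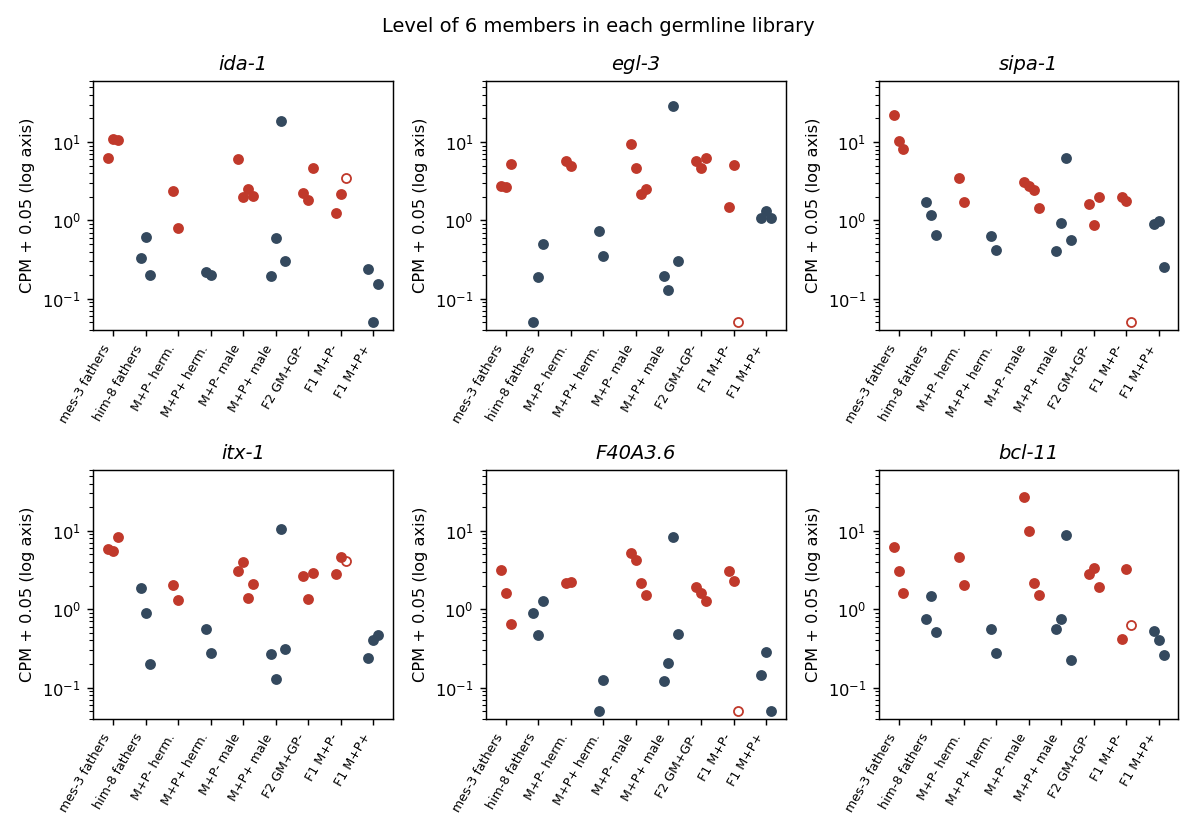
Level of ida-1, egl-3, sipa-1, itx-1, F40A3.6 and bcl-11 in each germline library (CPM + 0.05, log axis), 1 point per library, colours as in the plot of genes detected per library and open circles for F1 M+P- replicate 3. For ida-1, every mes-3, M+P-, F2 and F1 M+P- point is above the points of its own comparison group, except that M+P+ male replicate 3 (18.5 CPM) is above all M+P- males.

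In first-cross offspring the M+P+ libraries were used to choose the genes, so their levels are a description. Of the 200 genes, 19 and 26 reached 1 CPM in the M+P- hermaphrodite germlines, and 0 by the rule in both M+P+ libraries. The summed level was 87.8 and 93.9 CPM in M+P- hermaphrodites and 44.4 and 39.97 CPM in M+P+ hermaphrodites. Of 185 genes with a count, 67 (36.2%) had both M+P- libraries above both M+P+ libraries, where the share over all genes is 20.9%. Nothing is read from these counts, because the rule held the M+P+ side under 1 CPM.

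The 8 members with the highest mean in M+P- hermaphrodite germlines are egl-3, bcl-11, sipa-1, the synaptotagmin gene snt-4, the acyl-CoA oxidase gene acox-3, F40A3.6, Y39B6A.1 and madd-4, which encodes a secreted guidance and synapse-organising protein. egl-3 had 5.70 and 4.97 CPM in M+P- and 0.677 and 0.298 CPM in M+P+ hermaphrodites. bcl-11 had 4.53 and 1.99 CPM in M+P- and 0.508 and 0.223 CPM in M+P+ hermaphrodites. For egl-3 these levels rest on 63 and 60 counts in M+P- and on 8 and 4 counts in M+P+, so counting error is part of each value. ram-2, the gene with the highest larval level, had 0 counts in all 4 hermaphrodite libraries of the first cross.

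Male germlines of the first cross showed a wide spread within each group. In M+P- males 118, 88, 66 and 14 of the 200 genes reached 1 CPM, with summed levels of 526, 279, 188 and 52.2 CPM. In M+P+ males the counts were 0, 0, 168 and 0, with summed levels of 58.7, 44.5, 2130 and 26.1 CPM, the 168 and the 2130 CPM being replicate 3. With replicate 3 the groups overlap on both measures. Without it, 3 of 4 M+P- libraries are above all M+P+ libraries in summed level, while M+P- replicate 4 (52.2 CPM) is below M+P+ replicate 1. Over all 4 libraries a group, 2 of the 196 genes with counts had every M+P- library above every M+P+ library, against 2.18% of all genes.

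The 8 members with the highest mean in M+P- male germlines are irg-7, bcl-11, hrg-11.3, Y39B6A.1, F31F7.1, egl-3, F35E12.6 and tag-10. For irg-7 the level was 23.2, 18.9, 0.193 and 0.184 CPM in M+P- males, and 0.435, 0, 158 and 0.0859 CPM in M+P+ males. Its mean thus comes from 2 M+P- libraries, and M+P+ replicate 3 is above them. bcl-11 had 26.9, 9.82, 2.12 and 1.47 CPM in M+P- males and 0.508, 0.708, 8.74 and 0.172 CPM in M+P+ males. Without replicate 3 all M+P- males are above all M+P+ males for bcl-11.

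A check of other tissues was made with markers that are not among the 200. The 8 such intestine markers summed to 252, 73.6 and 21.5 CPM in mes-3 fathers and 276, 44.3 and 25.2 CPM in him-8 fathers. The 8 body muscle markers summed to 187, 137 and 30.8 CPM in mes-3 fathers and 70.1, 29.5 and 22.9 CPM in him-8 fathers. Within each father group, libraries with a higher sum of either list also had a higher sum of the 200 genes.

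Body muscle markers summed to 249, 28.6, 79.7 and 10.001 CPM in M+P- males and 19, 11.4, 2270 and 5.07 CPM in M+P+ males, the 2270 CPM being replicate 3. Intestine markers summed to 203, 136, 57.3 and 8.35 CPM in M+P- males and 37.1, 14.7, 266 and 1.63 CPM in M+P+ males. The intestine list follows the order of the 200 genes within M+P- males, and the muscle list does so except for replicates 2 and 3. In hermaphrodites of the first cross they summed to 29.9 and 31.6 CPM in M+P- and 27.1 and 25.8 CPM in M+P+. Intestine markers there summed to 69.6 and 194 CPM in M+P- and 28.9 and 40.8 CPM in M+P+. The part of these tissues in the levels of the 200 genes was not tested, and in bulk samples a few cells with much of an RNA and many cells with little cannot be told apart. Within the intestine list, the gut regulator elt-2 is at most 3.65 CPM in germline libraries, in M+P+ males. The list as a whole reached 2365 CPM, in F1 M+P- replicate 2, so elt-2 does not stand for it.

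**Figure D3:**
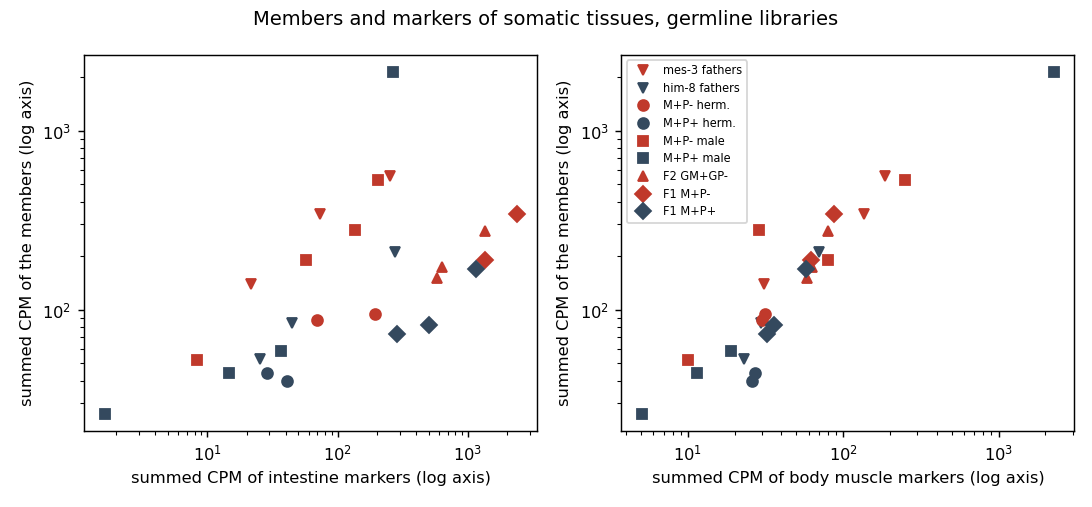
Summed CPM of the 200 genes (vertical, log axis) against the summed CPM of intestine markers (left, log axis) and of body muscle markers (right, log axis) that are not among them, 1 point per germline library, shapes and colours by group; F1 M+P- replicate 3 is not drawn. M+P+ male replicate 3 is at the top right corner of the body muscle panel with 2270 CPM of muscle markers and 2130 CPM of the 200 genes.

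Single markers outside the set also passed the test (edgeR). In fathers, unc-22 of body muscle was higher in mes-3 (log2 fold change 2.305, SE 0.51, adjusted p = 0.0345), as were the somatic gonad markers lim-7 (3.46, SE 0.50, adjusted p = 0.00719) and gon-1 (4.06, SE 0.65, adjusted p = 0.0102), 2 of 4 somatic gonad markers tested. lim-7 had 6.004 to 14.3 CPM in mes-3 fathers and 0.608 to 1.27 CPM in him-8 fathers. In F2 over F1 M+P+ lim-7 was again called (1.46, SE 0.27, adjusted p = 0.0137). The intestine marker ges-1 was called higher in F1 M+P- (2.69, SE 0.53, adjusted p = 0.0297) and in F2 (2.35, SE 0.51, adjusted p = 0.0302). Over the whole lists, members included, 1 of 6 body muscle and 0 of 3 intestine markers tested were called higher in fathers. In the F1 it was 0 of 7 body muscle, 1 of 8 intestine and 0 of 4 somatic gonad markers. In F2 over F1 M+P+ it was 0 of 8, 1 of 6 and 1 of 4. Over all genes tested 7.01%, 2.19% and 2.54% were called higher in these comparisons. The part of these cell types in the levels of the 200 genes was not tested.

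Pharynx markers outside the set stayed at 0 to 1.95 CPM summed in male and 2.01 to 4.61 CPM in complete hermaphrodite libraries. Epidermis markers summed to 187 to 351 CPM in germlines and 187 to 241 CPM in larvae, so that list does not separate the 2 materials. Somatic gonad markers summed to 36.3 to 111.99 CPM in complete germline libraries and 94.7 to 137 CPM in larvae. Neuron markers outside the set summed to 59.9 to 187 CPM in complete germline libraries, of which the synaptobrevin gene snb-1 alone gave 54.96 to 165 CPM.

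In the second cross, F1 hermaphrodite germlines of M+P- animals had higher summed levels than those of M+P+ animals. They were 188 and 341 CPM in the complete F1 M+P- libraries and 82.4, 169 and 72.6 CPM in F1 M+P+. The lower M+P- library is 188 CPM and the higher M+P+ library 169 CPM, so the gap is narrow. Of the 200 genes, 67 and 93 reached 1 CPM in F1 M+P-, against 21, 58 and 16 in F1 M+P+. Of 194 genes with counts, 77 (39.7%) had both M+P- libraries above all 3 M+P+ libraries, and 16.7% of all genes did. Intestine markers outside the set moved the same way, with 1345 and 2365 CPM in F1 M+P- and 499, 1159 and 286 CPM in F1 M+P+. Body muscle markers summed to 62.3 and 87.4 CPM in F1 M+P- and 35.7, 57.9 and 32.5 CPM in F1 M+P+. The part of these tissues was not tested. These intestine sums come mostly from the vitellogenin genes, which adult gut expresses.

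Of the 70 members that passed the low-count filter in the F1, 6 were called higher in M+P- and 0 lower, and 2.19% of all 8326 genes tested were called higher. The median log2 fold change of the 70 was 1.41 and that of all genes 0.00. As in fathers, members that passed the filter only through the higher group had to differ. Neither the median nor the count of calls beside the share of all genes thus carries weight. The count depends on single libraries: it was 2 without either M+P- library or without M+P+ replicate 1 or 3, and 29 without M+P+ replicate 2. With the incomplete replicate put back, 0 were called. All 6 lie on autosomes, where 2.40% of all genes were called higher, and 0 of the 23 tested members on chromosome X were called. X genes in general were rarely called higher, with 0.608% of 823.

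F40A3.6, a gene without an assigned role here, had 3.03 and 2.24 CPM in F1 M+P-, against 0.0941, 0.234 and 0 CPM in F1 M+P+. The groups are far apart, with a log2 fold change of 4.47 (SE 0.70, adjusted p = 0.0120, edgeR). ida-1 had 1.21 and 2.12 CPM in F1 M+P- and 0.188, 0 and 0.104 CPM in F1 M+P+, with a log2 fold change of 3.81 (SE 0.75, adjusted p = 0.0297, edgeR). F40A3.6 and ida-1, and itx-1 below, were under 1 CPM in every F1 M+P+ library. They passed the filter only through F1 M+P-, so the filter limit given above holds for their tests too.

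itx-1 had 2.78 and 4.61 CPM in F1 M+P- and 0.188, 0.350 and 0.416 CPM in F1 M+P+, with no overlap. Its log2 fold change was 3.48 (SE 0.50, adjusted p = 0.00777, edgeR). It is also high in the incomplete replicate 3 of F1 M+P-, with 4.04 CPM. The remaining 3 called genes are of detoxification, purine breakdown and unknown function: the cytochrome P450 gene cyp-29A2 (log2 fold change 3.14, SE 0.63), the xanthine dehydrogenase gene xdh-1 (2.67, SE 0.47) and nspg-9, of a nematode-specific peptide family (2.08, SE 0.39). None of the 6 was called in every alternative: F40A3.6 was called in 8 of 9, itx-1 in 8 of 10 and ida-1 in 4 of 9. Of 5 leave-one-out fits, cyp-29A2 and nspg-9 were called in 1 each and xdh-1 in 2. egl-3 had 1.45 and 5.11 CPM in F1 M+P- and 1.03, 1.28 and 1.04 CPM in F1 M+P+. Its log2 fold change was 1.51 with an adjusted p of 0.187 in edgeR.

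Other roles were without a call in the F1. The gut filament gene ifc-2 had 2.54 and 3.98 CPM in F1 M+P- and 0.564, 1.52 and 0.312 CPM in F1 M+P+, and the ranges do not overlap. Its log2 fold change was 2.04 with an adjusted p of 0.0948 in edgeR. The transcription factor gene nhr-31, a nuclear hormone receptor, had 1.69 and 5.35 CPM in F1 M+P- and 0.659, 0.701 and 0.104 CPM in F1 M+P+. Its log2 fold change of 2.79 had an adjusted p of 0.0630 in edgeR.

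In F2 hermaphrodites, which had no father, the summed level was 150, 274 and 173 CPM, against 82.4, 169 and 72.6 CPM in F1 M+P+. The lowest F2 library is below the highest F1 M+P+ library. The samples hold no F2 group of M+P+ descent. Generation and history thus cannot be told apart in any F2 comparison, of RNA or of either mark. The F2 and F1 M+P- comparisons share the 3 F1 M+P+ libraries, so no overlap between their gene lists is read as a result. Of the 200 genes, 47, 92 and 57 reached 1 CPM in F2. Intestine markers outside the set summed to 578, 1364 and 631 CPM in F2 and 499, 1159 and 286 CPM in F1 M+P+, and body muscle markers to 58.2, 79.7 and 62.6 CPM in F2 and 35.7, 57.9 and 32.5 CPM in F1 M+P+. Their part was not tested. Of 195 genes with counts, 26 (13.3%) had every F2 library above every F1 M+P+ library, and 9.03% of all genes did.

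Of the 54 members that passed the filter, 7 were called higher in F2 than in F1 M+P+ and 0 lower. Over all 8296 genes tested, 2.54% were called higher. As in fathers, a member that passed the filter only through the F2 libraries had to differ. The count of calls beside that share thus carries no weight. The labels do not say that the replicate numbers pair the libraries of this comparison. With the number as a block 14 members were called. Leaving out F2 replicate 1 or F1 M+P+ replicate 1 gave 3, and leaving out F1 M+P+ replicate 2 gave 12. All 7 are autosomal: 0 of the 16 tested members on X were called. The same holds for X genes in general, with 0 of 812 called higher, against 2.87% of autosomal genes.

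ida-1 had 2.21, 1.75 and 4.63 CPM in F2 and 0.188, 0 and 0.104 CPM in F1 M+P+. All F2 libraries are above all F1 M+P+ libraries, with a log2 fold change of 4.60 (SE 0.70, adjusted p = 0.00438, edgeR). egl-3 had 5.67, 4.60 and 6.29 CPM in F2 and 1.03, 1.28 and 1.04 CPM in F1 M+P+, with a narrow spread in both groups and a log2 fold change of 2.26 (SE 0.29, adjusted p = 0.00139, edgeR).

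bcl-11 had 2.73, 3.31 and 1.85 CPM in F2, against 0.470, 0.350 and 0.208 CPM in F1 M+P+. The groups do not overlap, and the log2 fold change was 2.85 (SE 0.45, adjusted p = 0.00524, edgeR). ida-1, egl-3 and bcl-11 were called in all 10 alternatives of the F2 comparison. F40A3.6 had 1.89, 1.57 and 1.203 CPM in F2 and 0.0941, 0.234 and 0 CPM in F1 M+P+, with a log2 fold change of 3.71 (SE 0.66, adjusted p = 0.0111, edgeR).

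The other 3 called genes were itx-1, nhr-31 and the synaptotagmin gene snt-4. itx-1 had 2.63, 1.29 and 2.87 CPM in F2 and 0.188, 0.350 and 0.416 CPM in F1 M+P+, with a log2 fold change of 2.77 (SE 0.51, adjusted p = 0.0137, edgeR). nhr-31 had 1.79, 2.76 and 2.68 CPM in F2 and 0.659, 0.701 and 0.104 CPM in F1 M+P+, with a log2 fold change of 2.25 (SE 0.50, adjusted p = 0.0317, edgeR). snt-4 had 1.89, 2.58 and 1.67 CPM in F2 and 0.470, 0.701 and 0.520 CPM in F1 M+P+, with a log2 fold change of 1.82 (SE 0.39, adjusted p = 0.0296, edgeR). None of these ranges overlap, but snt-4 was called in 0 of 6 leave-one-out fits, nhr-31 in 1 of 6 and itx-1 in 3 of 6. F40A3.6 was called in 4 of 6. Of the genes called in F2, all but egl-3 were under 1 CPM in every F1 M+P+ library. They passed the filter only through the F2 libraries, so the filter limit given above holds for their tests too.

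Between F2 and F1 M+P- few genes of any kind were called. Of 90 members tested, 0 were called in either direction by edgeR, 7 had an unadjusted p under 0.05, and DESeq2 called 0. Without F2 replicate 2 the count was 2. Over all 8622 genes tested, 0.0116% were called higher and 0.0348% lower. ida-1 and egl-3 had log2 fold changes of 0.79 (SE 0.51) and 0.77 (SE 0.42), while nspg-9 had -1.31 (SE 0.44, adjusted p = 0.890 in edgeR). Only 2 complete F1 M+P- libraries enter this comparison, so a p above the threshold does not show that the groups have like levels.

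The role sets were drawn up after the data were seen, and their counts are a description with no test. Of the 10 neuropeptide genes among the 200, 3 passed the filter in fathers and 2 of these were called higher, 4 passed in the F1 with 1 called, and 4 passed in the F2 over F1 M+P+ with 2 called. Over all genes tested 7.01%, 2.19% and 2.54% were called higher in these comparisons. Members that passed the filter only through the higher group had to differ, so these counts carry no weight. The carboxypeptidase gene egl-21, which trims the peptides that EGL-3 cuts, had 4.31, 2.98 and 0.956 CPM in mes-3 fathers and 0.846, 1.98 and 1.37 CPM in him-8 fathers, which overlap (log2 fold change 0.89, adjusted p = 0.481, edgeR). The EGL-3 chaperone gene sbt-1 stayed at 0 to 0.701 CPM in fathers, F1 and F2.

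Among the 6 genes of the regulator set, of which bcl-11 was not placed by name pattern, bcl-11 and nhr-31 passed the filter in F2. Both were called higher, where 2.54% of all genes tested were. Members that passed only through the F2 libraries had to differ, so the counts of this paragraph carry no weight. Of the 10 synaptic and gap junction genes, 2 passed in F2 and 1 (snt-4) was called. For the intestinal filament, pharynx, body wall muscle, touch receptor neuron, transporter, fatty acid oxidation and prolyl carboxypeptidase-like genes, 0 were called by edgeR in these 4 RNA comparisons. Filter losses were heavy in those groups: of 6 pharynx genes, 0 passed in fathers, F1 or F2 over F1 M+P+.

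The neuron marker list also holds genes above the germline limit. Of its 10 genes, 6 passed the filter in fathers with 3 called higher, 7 passed in the F1 with 2 called, and 7 passed in F2 over F1 M+P+ with 4 called. The shares of all genes called higher were 7.01%, 2.19% and 2.54%. The filter limit given above holds for the 6 members on this list. unc-31, which is not among the 200, acts in the release of dense-core vesicles. It had 12.7 to 22.1 CPM in mes-3 fathers and 0.760 to 1.98 CPM in him-8 fathers. In the second cross it had 11.6 to 16.2 CPM in F2 and 2.07 to 2.22 CPM in F1 M+P+. unc-31 was called higher in mes-3 fathers (log2 fold change 3.42, SE 0.41, adjusted p = 0.00313), in F1 M+P- (2.45, SE 0.24, adjusted p = 0.00144) and in F2 (2.61, SE 0.23, adjusted p = 0.000150), all in edgeR. The synaptobrevin gene snb-1 had log2 fold changes of 0.06, 0.02 and -0.01 in the same comparisons, with SEs of 0.16, 0.07 and 0.06.

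Some members stayed low in the germline libraries other than M+P+ male replicate 3. Leaving out M+P+ male replicate 3, 39 of the 200 were under 1 CPM in all 26 other germline libraries, of which 5 are low by the rule. These 39 include 5 of the 6 pharynx genes and 4 of the 5 touch receptor neuron genes, and 19 lie on X. myo-2, at 1583 CPM in M+P+ larvae, reached 1.00 CPM at most, in M+P- male replicate 1. myo-1 reached 0.484 CPM at most. The touch neuron tubulin gene mec-7 was at 0 in all 3 mes-3 fathers and at 0, 0.282 and 0.760 CPM in him-8 fathers. The pharyngeal troponin gene tnt-4 was at 0 in all 3 him-8 fathers and all 3 F1 M+P+ libraries, and had 0, 0.175 and 0.597 CPM in mes-3 fathers, 0.968 and 1.37 CPM in F1 M+P- and 1.79, 1.66 and 0.648 CPM in F2. It did not pass the filter in those comparisons and was not tested there.

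In larvae the 200 genes were at their high level in both groups. The summed level was 60334, 58555 and 54833 CPM in M+P- larvae and 56554, 62555 and 60011 CPM in M+P+ larvae. These ranges overlap. The M+P+ larvae chose the genes, so no test was made.

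Both marks were measured over the same genes. The authors' z-scores, which set each gene against the others of a library, cover 194 of the 200. The 6 without one are tts-2, R13H4.2, Y39B6A.21, C30E1.9, F07H5.4 and C15A11.7. Another 6 of the 194 have no CUT&RUN count in any library, so their z-scores sit at the floor of each library: lfi-1, del-6, mlt-7, T28D6.5, tni-3 and F40A3.6. The marks were not used to choose the genes.

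On autosomes the members carried more H3K27me3 and less H3K36me3 than the typical gene. Across the 12 H3K27me3 libraries, the median z-score of the 124 autosomal members was 0.37 to 0.71, against 0.25 to 0.44 for all autosomal genes. Across the 12 H3K36me3 libraries it was -0.24 to 0.02 for autosomal members and -0.03 to 0.21 for all autosomal genes. In each library 63.7% to 82.3% of autosomal members were above the autosomal median of H3K27me3, and 15.3% to 29.03% above that of H3K36me3.

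On X the members looked like other X genes. Their median H3K27me3 z-score was 0.48 to 0.80, against 0.45 to 0.79 for all X genes, and their median H3K36me3 z-score was -1.16 to -0.18, against -1.22 to -0.14. The X chromosome as a whole is high in H3K27me3 and low in H3K36me3, and the 70 X members with a z-score share that. Median z-scores over members are a description, since genes are not replicates.

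**Figure D4:**
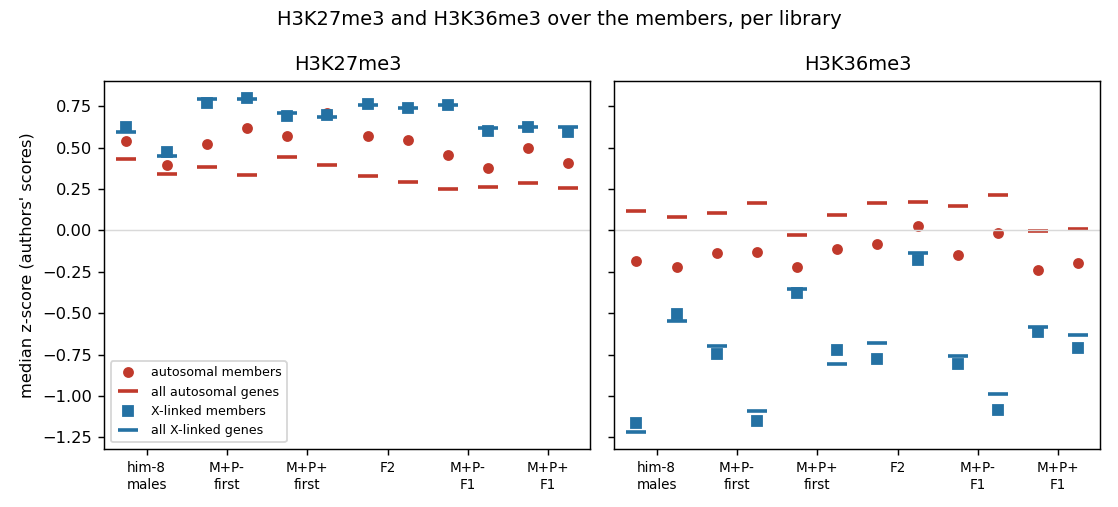
Median z-score of H3K27me3 (left) and H3K36me3 (right) per CUT&RUN library, for autosomal members (red circles), all autosomal genes (red bars), X-linked members (blue squares) and all X-linked genes (blue bars). Red circles lie above red bars for H3K27me3 and below them for H3K36me3 in every library, and blue squares lie close to blue bars.

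In him-8 males, single members differed widely in H3K27me3. The highest mean z-scores were those of H03A11.2 on X (1.69), C45B2.2 on X (0.89), F41C3.2 on II (0.75), the Wnt ligand gene egl-20 on IV (0.75) and the antimicrobial peptide gene nlp-29 on V (0.72). H03A11.2 was high in every germline, with z-scores of 1.48 to 1.98 over the 12 libraries. The 5 lowest z-scores belong to genes without any CUT&RUN count. Among genes with counts, chosen after that was seen, the lowest were endu-2 on X, C46G7.2 on IV, acox-1.1 on I, tnc-2 on II and T02E9.5 on V. endu-2 had z-scores of 0.07 and -0.31 for H3K27me3 and of -1.23 and -1.52 for H3K36me3 in him-8 males.

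The 2 marks were compared gene by gene in him-8 males. Of 193 members tested, 31 were called higher in H3K27me3 than in H3K36me3 relative to the typical gene, and 0 lower. Of all 22407 genes tested, 8.66% were called higher. Much of this lies on X: 20 of 70 X members were called, and 30.1% of all X genes. On autosomes 11 members were called (the rest of the 193), and 5.54% of all autosomal genes. The comparison is relative to the scaling: scaled to library totals, the median of all genes moves from 0.31 to 1.57 on the log2 scale, and 175 members are called. The count was 12 and 19 without H3K27me3 replicate 1 or 2, and 108 without H3K36me3 replicate 2.

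The called genes with the largest ratios are of several tissues. C45B2.2 had 19 and 37 H3K27me3 counts and 0 and 0 H3K36me3 counts, so no fold is given. The water channel gene aqp-8 had 70 and 87 H3K27me3 counts and 0 and 2 H3K36me3 counts. nlp-29 had 32 and 59 H3K27me3 counts and 2 and 0 H3K36me3 counts. These are the shallowest libraries, so a log2 ratio of 4.82 for aqp-8 (SE 0.84) and of 3.84 for nlp-29 (SE 1.11) rests on few H3K36me3 counts.

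The gap junction gene unc-9 rests on more, with 157 and 264 H3K27me3 counts and 4 and 16 H3K36me3 counts. Its log2 ratio was 2.96 (SE 0.47, adjusted p = 0.00159, edgeR). F09B12.3, the tyrosine aminotransferase gene tatn-1, C24A3.2 and C26B9.5 complete the 8 largest, with log2 ratios of 3.70, 3.05, 3.04 and 2.52. Of the genes called in the RNA comparisons, xdh-1 was called here with a log2 ratio of 1.49 (SE 0.39, adjusted p = 0.0212, edgeR). ida-1 was not, with a log2 ratio of 0.34 (SE 0.39, adjusted p = 0.518, edgeR), nor was egl-3, with 0.66 (SE 0.51, adjusted p = 0.337, edgeR).

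In M+P+ hermaphrodites of the first cross, 0 members were called higher in H3K27me3 and 2 lower, while 0.0069% of all genes were called higher and 20.2% lower. The members' count of lower calls is thus far below the background: 2 of 193. The 2 genes are the acid phosphatase gene pho-11 and the small heat shock gene hsp-12.2. pho-11 had 678 and 378 H3K27me3 counts and 1109 and 4257 H3K36me3 counts, a log2 ratio of -3.25 (SE 0.72, adjusted p = 0.0339, edgeR). hsp-12.2 had 332 and 265 H3K27me3 counts and 585 and 1902 H3K36me3 counts, a log2 ratio of -3.04 (SE 0.58, adjusted p = 0.0194, edgeR). Scaled to library totals, both miss the threshold and 3 members are called higher and 0 lower. Without H3K36me3 replicate 1 of M+P+ the calls in either direction numbered 120, without H3K36me3 replicate 2 they numbered 10, without H3K27me3 replicate 1 they numbered 1, and without H3K27me3 replicate 2 they numbered 0. DESeq2 called 4.

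Total H3K27me3 of single members did not pass the test between M+P- and M+P+. In the first cross 0 of 193 members were called by edgeR, 1 had an unadjusted p under 0.05, and DESeq2 called 0, with 0.0% of all genes called higher and 0.0% lower. In the F1 0 were called by edgeR, 8 had an unadjusted p under 0.05 and DESeq2 called 0, again with 0.0% of all genes called either way. Without F1 M+P- replicate 2 the count was 1. For ida-1 the first-cross log2 fold change was -0.34 (SE 0.16) and for egl-3 -0.32 (SE 0.17), both with an adjusted p of 1.00 in edgeR. A p above the threshold does not show that the marks were alike.

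In F2 the members carried more H3K27me3 relative to F1 M+P+, and so did X genes in general. Without an F2 group of M+P+ descent, generation and history cannot be told apart here. Of 193 members, 12 were called higher and 0 lower, where 0.65% of all genes were called higher and 9.91% lower. The median log2 fold change of members was 0.17 and that of all genes 0.02, and 162 of the 193 were positive. Of the 193, 61.7% had both F2 libraries above both F1 M+P+ libraries, and 25.9% of all genes with counts did. The count of calls ran from 1 without F1 M+P+ replicate 2 to 31 without F1 M+P+ replicate 1. It was 4 without F2 replicate 1. By chromosome, 7 of the 12 lie on X, where 1.37% of all genes were called higher, against 0.532% on autosomes.

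The 8 largest of these differences are small. Y39B6A.1 had 72.0 and 58.1 CPM in F2 and 48.9 and 39.2 CPM in F1 M+P+, a log2 fold change of 0.55 (SE 0.15, adjusted p = 0.0188, edgeR). kola-1, on X, had 382 and 357 CPM in F2 and 296 and 266 CPM in F1 M+P+. Its log2 fold change was 0.39 (SE 0.08, adjusted p = 0.00372, edgeR). The others are abt-4, of the ABC transporters, with 0.43, the acyl-CoA oxidase gene acox-1.1 with 0.41, T23E7.2 and the phosphodiesterase gene pde-6 with 0.37 each, and H03A11.2 and the potassium channel gene kvs-5 with 0.32 each. The heterochronic regulator lin-14, which times larval stages, was also called, with 411 and 400 CPM in F2 and 344 and 324 CPM in F1 M+P+ (log2 fold change 0.28, SE 0.08, adjusted p = 0.0229, edgeR). None of these genes was called higher in F2 RNA, but a gene that did not pass the low-count filter there was not tested. lin-14 was not among the regulators that passed, with at most 2 counts in any F2 or F1 M+P+ RNA library. The absence of a call thus does not show that the RNA of these genes was unchanged.

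H3K36me3 gave no call among the members between histories. In the first cross 0 of 193 were called by edgeR and by DESeq2, and 1 had an unadjusted p under 0.05, with 0.0% of all genes called. Leaving out M+P+ replicate 1 gave 47, and leaving out M+P+ replicate 2 gave 3. In the F1 0 were called by edgeR, 30 had an unadjusted p under 0.05 and DESeq2 called 1, while 0.121% of all genes were called higher and 0.0% lower. Between F2 and F1 M+P+ 0 were called by edgeR and by DESeq2 and 22 had an unadjusted p under 0.05, with 0.0% of all genes called. Without F2 replicate 1 the count was 21. In the F1 leaving out M+P- replicate 2 gave 2, and leaving out M+P+ replicate 2 gave 1. Of 193 members, 126 (65.3%) had both F2 libraries above both F1 M+P+ libraries, and 39.5% of all genes did. That share rests on the scaling to column totals. In the fit the median log2 change of members was 0.48 and that of all genes 0.24 with trimmed mean of M-values (TMM) scaling, 0.31 and 0.08 with DESeq-type size factors (RLE), and 0.74 and 0.50 with library totals.

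Reads could be assigned to a parental chromosome where the strains differ, and shares are given for autosomal members first. In M+P- germlines the autosomal members' H3K36me3 reads came more often from the sperm chromosome than in M+P+ germlines. Their pooled share on the sperm allele was 63.5% and 67.96% in the M+P- hermaphrodite libraries of the first cross and 51.3% and 51.6% in M+P+. The Wilson 95% intervals, which cover counting error only, were 61.8 to 65.1% and 66.6 to 69.3% in M+P- and 49.9 to 52.8% and 50.4 to 52.9% in M+P+. Over all autosomal genes the share was 57.1% and 59.0% in M+P- and 54.5% and 54.9% in M+P+. All autosomal genes thus moved the same way, by less.

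The F1 of the second cross showed the same order. The pooled H3K36me3 share of autosomal members on the sperm allele was 71.1% and 61.8% in F1 M+P- and 51.1% and 55.5% in F1 M+P+. Over all autosomal genes it was 58.4% and 57.6% in F1 M+P- and 55.1% and 54.7% in F1 M+P+. In F2, where the alleles trace to the grandparents, it was 54.3% and 53.7% for members and 54.5% and 56.2% for all autosomal genes. For the members, both F2 libraries lie within the range of F1 M+P+. The X members did not share the order of the first cross: their H3K36me3 share on the sperm allele was 54.9% and 58.1% in M+P- and 56.4% and 63.9% in M+P+. In the F1 it was 61.3% and 59.1% in M+P- and 57.4% and 54.04% in M+P+, and in F2 48.7% and 44.9%.

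**Figure D5:**
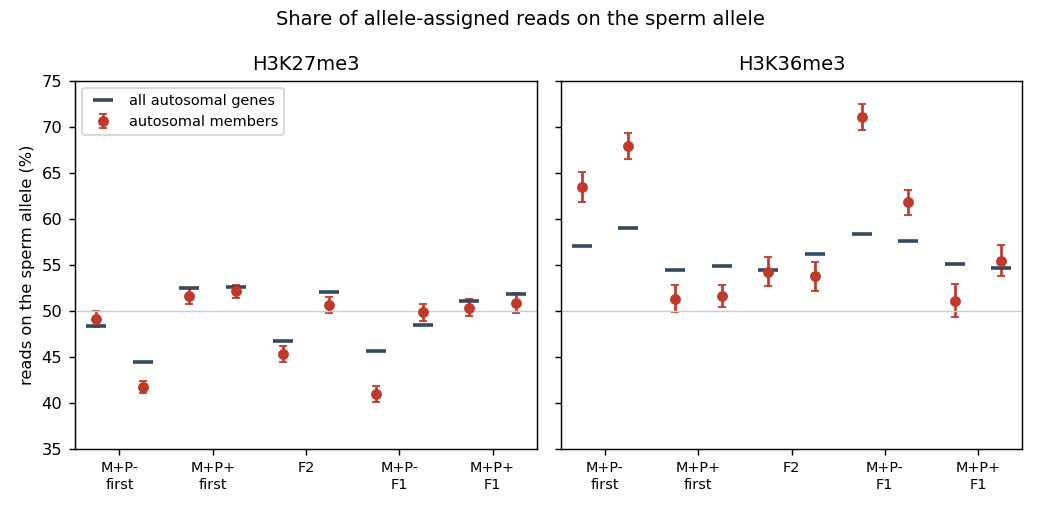
Percent of allele-assigned reads on the sperm (in F2, grandpaternal) allele for H3K27me3 (left) and H3K36me3 (right), 1 point per library for the pooled autosomal members with Wilson 95% intervals, and a bar for all autosomal genes. For H3K36me3 the 4 M+P- libraries are at 61.8 to 71.1%, above the M+P+ and F2 libraries at 51.1 to 55.5%.

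Counted by gene, with members of at least 20 assigned reads in a group, 57 of 73 had over 60% of H3K36me3 reads on the sperm allele in M+P- and 25 of 76 in M+P+. Over all autosomal genes 48.8% did in M+P- and 38.1% in M+P+. In the F1 it was 49 of 76 in M+P- and 21 of 70 in M+P+, with 49.5% and 33.7% of all genes, and in F2 27 of 81, with 35.9%. The gene-by-gene test of a difference in share between the histories called 0 of 108 members in the first cross (77 autosomal, 31 on X) and 0 of 96 in the F1 (70 autosomal, 26 on X) by edgeR. Unadjusted p was under 0.05 for 6 and 9 of them, and 0.0% of all genes were called. Without M+P+ replicate 1, 16 members were called in the first cross.

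For single genes, itx-1 had 76.8% of 138 and 81.9% of 149 assigned H3K36me3 reads on the sperm allele in M+P- hermaphrodites, and 45.4% of 227 and 58.4% of 317 in M+P+. The log2 change of its odds was 1.83 (SE 0.67, unadjusted p = 0.0127), which did not pass the adjustment (adjusted p = 1.00, edgeR). bcl-11 had 75 of 98 and 68 of 86 reads on the sperm allele in M+P- and 41.1% of 163 and 77.7% of the replicate 2 reads in M+P+, which overlap.

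For H3K27me3 the share on the sperm allele was lower in M+P-, for members and for all autosomal genes. The pooled share of autosomal members on the sperm allele was 49.1% and 41.7% in M+P- and 51.6% and 52.1% in M+P+ of the first cross. In the F1 it was 40.9% and 49.9% in M+P- and 50.4% and 50.8% in M+P+, and in F2 45.3% and 50.7%. All autosomal genes had 48.4% and 44.5% in M+P- and 52.5% and 52.6% in M+P+ of the first cross. In the F1 they had 45.6% and 48.5% in M+P- and 51.04% and 51.8% in M+P+, and in F2 46.7% and 52.01%. The 2 M+P- libraries of each cross differ more from each other than the 2 M+P+ libraries do, and for the autosomal members all 4 M+P- libraries are below the M+P+ libraries of their cross.

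Of 135 members (90 autosomal, 45 on X), 3 were called lower in the share of H3K27me3 on the sperm allele in M+P- of the first cross, where 1.27% of all genes were called lower. The intestinal sodium-proton exchanger gene nhx-2 had 20.8% and 25.6% of its reads on the sperm allele in M+P- and 53.7% and 53.5% in M+P+, of 53 and 90 reads in M+P- and 67 and 86 reads in M+P+. The log2 change of its odds was -1.90 (SE 0.47, adjusted p = 0.0348, edgeR). pghm-1, whose product amidates neuropeptides, had 42.5% and 22.96% in M+P- and 57.7% and 59.8% in M+P+ (log2 change -1.60, SE 0.39, adjusted p = 0.0307, edgeR). Y51A2D.13 had 36.6% and 28.4% in M+P- and 52.6% and 53.7% in M+P+ (log2 change -1.23, SE 0.24, adjusted p = 0.00623, edgeR). The count was 0 without M+P- replicate 2 or without either M+P+ library, and 5 without M+P- replicate 1. In the F1 0 of 135 members were called by edgeR, 5 had an unadjusted p under 0.05, 0.0% of all genes were called, and the count was 2 without M+P- replicate 2.

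RNA of the members was too sparse for most allele tests. In M+P- male germlines, whose X comes from the mother, the autosomal members had 63.2% of 223, 72.7% of 154, 32 of 50 and 7 of 14 assigned reads on the sperm allele. In M+P+ males they had 11 of 22, 8 of 16, 48.7% of 423 and 0 of 5, the 423 reads being those of replicate 3. Over all autosomal genes the share was 51.6% to 53.2% in these 8 libraries. The Wilson 95% interval was 56.7 to 69.3% for M+P- replicate 1 and 43.97 to 53.5% for M+P+ replicate 3.

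For a test of the sperm against the oocyte allele in M+P- males, 4 members had enough reads. Of these, 2 were called higher on the sperm allele, where 17.3% of all genes tested were. bcl-11 had 64 of 74, 37 of 38, 5 of 7 and 1 of 1 reads on the sperm allele in M+P- males, and 16 of 28 in M+P+ replicate 3. The log2 ratio in M+P- males was 3.01 (SE 0.53, adjusted p = 3.4e-05, edgeR), and it was called in all 6 alternatives. C29F3.7, without an assigned role here, had 21 of 29, 7 of 7 and 5 of 5 reads on the sperm allele in M+P- replicates 1 to 3. Its log2 ratio was 2.26 (SE 0.79, adjusted p = 0.0364, edgeR). The count was 1 without M+P- replicate 1, 2 or 3. F31F7.1 was tested without a call, with a log2 ratio of -0.15 (SE 0.65). In hermaphrodites of the first cross 0 members had enough reads.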

How the data were processed

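The deposited tables hold raw counts per gene for RNA and CUT&RUN, counts of reads assigned to the sperm or oocyte allele, and z-scores (a score of each gene against the others of a library) made by the authors. Per the submitters' processing notes the build was ce10 and TopHat2 2.1.1, Bowtie2 2.3.5.1, HTSeq and DESeq2 1.22.2 were used. Their roles are not given in the sources used here. The first CUT&RUN count column holds quoted numbers and was read as counts.

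CPM was computed by column total. Counts were tested with edgeR 4.0.16 (R 4.3.3): TMM scaling, filterByExpr, quasi-likelihood F-test, Benjamini-Hochberg over all genes, threshold 0.05. Standard errors are the fold change divided by the root of F. Allele counts were fitted with the library as block for genes with a mean of 10 assigned reads. Alternatives were DESeq2 1.42.0, other scalings, no filter, the replicate block and leaving out each library. Tables were joined with Python 3.11.15, pandas 2.3.3 and SciPy 1.17.1. The fits were tested on simulated data.

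The members and lists were chosen with earlier results of these data known. The role sets and the 3 added allele comparisons (H3K36me3 in the first cross, both marks in the F1) were added after the data were seen. Named genes are the 10 with the highest larval level, all called in fathers, up to 8 called in each other comparison, the 8 highest in M+P- hermaphrodite and in M+P- male germlines, the genes at the limits, the extremes of H3K27me3 and the highest in larvae within roles. Other genes named, among them egl-21, sbt-1, ifc-2, tni-3, tnt-4, mec-7, lin-14, unc-31, lim-7, gon-1, ges-1 and unc-22, were chosen after their values were seen, from the lists. In F2 over F1 M+P+, the deviations of same-numbered RNA libraries had correlations of 0.30, 0.39 and 0.13. In fathers these were 0.67, -0.04 and 0.53. The labels do not say that the numbers pair samples. No sequences are shown, since no promoter or genome table was used here.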

Additional observations from a re-analysis of the deposited data

Results flagged for a closer look

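In 9 of 20 groups of 4 values, 1 sample lay far from the other 3 by Dixon's criterion, and all 9 belong to replicate 3 of the first-cross M+P+ male germlines. The usual chance rate of about 1 in 20 groups does not apply, because the rule held the other 3 M+P+ male libraries under 1 CPM for each of the 200 genes and did not use replicate 3. The distance is thus partly fixed by the choice of genes, and the 9 values come from the same library. The library had a summed level of 2130 CPM over the 200 genes and 168 of them at 1 CPM or more. Its levels were 158 CPM for irg-7, 88.0 CPM for hrg-11.3, 60.8 CPM for Y39B6A.1, 34.04 CPM for F31F7.1, 28.9 CPM for egl-3, 21.7 CPM for F35E12.6 and 8.74 CPM for bcl-11. Body muscle markers outside the set summed to 2270 CPM in it and intestine markers to 266 CPM, while the 6 pharynx genes summed to 0.849 CPM. Its part in any other result was not tested. The rule left this library out, and requiring silence in it as well would keep 32 of the 200 genes.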

How the results depend on the processing

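Counts of called members moved by more than 1.5 times in the following settings. Without the low-count filter they were 7 in fathers, 32 in the F1, 18 in F2 over F1 M+P+, 2 in F2 over F1 M+P-, 21 for H3K27me3 in F2 and 1 for H3K36me3 in the F1. With DESeq2 they were 8 in fathers, 1 for H3K36me3 in the F1 and 4 for the mark ratio in M+P+ hermaphrodites. With library totals they were 1 for H3K36me3 in F2 and 175 for the ratio in him-8 males. With the replicate block they were 16 in fathers, 18 in the F1, 14 in F2 over F1 M+P+, 1 in F2 over F1 M+P-, 44 for H3K27me3 in the first cross, 19 for H3K27me3 in F2, and 22 and 9 for H3K36me3 in the F1 and F2. The replicate numbers are not shown to pair samples in any comparison. With the pairing crossed, added after the data were seen, the ratio counts were 79 in him-8 males and 33 in M+P+ hermaphrodites. With the incomplete replicate 3 the F1 count was 0.

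Leaving out 1 library gave 1 to 4 calls in fathers, 2 to 29 in the F1, 3 to 12 in F2 over F1 M+P+ and 0 to 2 in F2 over F1 M+P-. For H3K27me3 it gave 0 to 0 in the first cross, 0 to 1 in the F1 and 1 to 31 in F2. For H3K36me3 it gave 0 to 47, 0 to 2 and 0 to 21. The ratio gave 12 to 108 in him-8 males and 0 to 120 in M+P+ hermaphrodites. Allele tests gave 1 to 2 for RNA in males, 0 to 5 and 0 to 16 for H3K27me3 and H3K36me3 in the first cross, and 0 to 2 and 0 to 0 in the F1. The cause of these moves was not tested. A limit of 0.5 CPM for silence would keep 109 of the 200 genes, and also requiring M+P+ male replicate 3 to be silent 32. Of 623 repeats over 66 called genes, 451 kept the call, 172 lost it and 0 reversed. The hermaphrodite RNA allele test had no member with enough reads, and leaving out a library was not run for it. With 2 to 3 libraries a group and levels of a few CPM, small changes were not detectable.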
